A study of Homo sapiens with 4 samples.

Results

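The nuclear-encoded subunits of the respiratory chain and ATP synthase were followed in HepG2 and PLC/PRF/5 cells with and without PF-429242. Members were the nuclear protein-coding genes whose symbols mark them as subunits of complex I (NDUFA, NDUFB, NDUFC, NDUFS and NDUFV genes), complex II (SDHA to SDHD), complex III (UQCR genes and CYC1), complex IV (COX4 to COX8 genes) or complex V (ATP5 genes). A member also had to reach 1 FPKM (sequenced fragments normalised to gene length and to library size) in at least 2 of the 4 libraries. By symbol, 87 of the 32479 deposited genes matched, and 78 of them passed the level filter. They were 33 genes of complex I, 4 of complex II, 9 of complex III, 13 of complex IV and 19 of complex V. NDUFA4, named for complex I but now placed in complex IV, was counted with complex IV. ATP5S, now named DMAC2L, was counted with complex V by its earlier symbol alone.

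The respiratory chain sits in the inner mitochondrial membrane. Complexes I and II pass electrons from NADH and succinate to ubiquinone, complex III passes them on to cytochrome c, and complex IV hands them to oxygen. Complexes I, III and IV pump protons as they do so, and complex V, the ATP synthase, lets protons back through a rotor to make ATP. Most subunits are encoded in the nucleus and imported, while a small core of complexes I, III, IV and V is encoded and translated inside the mitochondrion. Hepatocytes are rich in mitochondria and rely on this pathway, and nuclear respiratory factor NRF1, the ETS-family factor GABP and YY1 are known to bind many of these genes' promoters.

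Each of the 4 groups was 1 library from wild-type cells of an established line. They were HepG2 given 20 uM PF-429242 for 24 h, the untreated HepG2 control at 24 h, PLC/PRF/5 given the same treatment, and its untreated control at 24 h. The compound PF-429242 blocks site-1 protease, which cuts the sterol regulatory element-binding proteins (SREBPs) and ATF6 in the Golgi and so frees them from the membrane. HepG2 derives from a hepatoblastoma and PLC/PRF/5 from a hepatoma that carries integrated hepatitis B virus DNA. As every group is 1 library, the comparisons of a treated library with its control had no replicates, and no p-value is given for them.

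The libraries held between 16722204 and 21387301 counted fragments, and between 11428 and 12441 genes reached 1 FPKM in them. All 8 hepatocyte-derived marker genes were present in every library, from 6.83 FPKM upwards, and the 3 measured fibroblast markers stayed at or below 0.190 FPKM. The highest value of the 4 measured muscle markers was 5.16 FPKM, for ACTA1 in control HepG2, with 1.28 FPKM in treated HepG2. That of the 3 endothelial markers was 1.36 FPKM, for PECAM1 in control PLC/PRF/5. LYZ, a marker of blood cells, was at 179 to 504 FPKM, and its part in the results was not tested. The mitochondrial genome took 27.6% of fragments in treated HepG2 and 16.6% in its control, and 28.2% in treated PLC/PRF/5 and 21.3% in its control. FPKM is scaled to all fragments, so this share enters the FPKM of every nuclear gene. The median log2 ratio of (FPKM + 1), PF-429242 over control, over the 12838 genes with 1 FPKM or more in at least 2 libraries stood at -0.16 for HepG2, against -0.12 for PLC/PRF/5.

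The promoters of 4 members that carry the results are shown here. COX8A was the lowest member in treated HepG2, UQCRC1 and UQCRC2 differed in direction between the lines, and NDUFS6 was above 0 in both. Each window covers 150 bases before to 30 after a RefSeq transcription start on GRCh38.p14, printed 5′ to 3′ on the gene's strand, with capitals marking a motif match. The windows are chr11:63974470-63974649 on the plus strand for COX8A, chr3:48609617-48609796 on the minus strand for UQCRC1, chr16:21953211-21953390 on the plus strand for UQCRC2 and chr5:1801257-1801436 on the plus strand for NDUFS6.
COX8A: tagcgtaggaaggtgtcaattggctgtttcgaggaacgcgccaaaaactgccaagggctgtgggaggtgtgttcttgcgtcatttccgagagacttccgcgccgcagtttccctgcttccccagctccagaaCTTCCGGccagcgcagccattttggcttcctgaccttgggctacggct
UQCRC1: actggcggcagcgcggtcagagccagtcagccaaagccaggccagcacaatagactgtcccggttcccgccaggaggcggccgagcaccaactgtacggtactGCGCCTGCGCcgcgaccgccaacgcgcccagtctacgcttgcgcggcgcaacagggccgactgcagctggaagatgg
UQCRC2: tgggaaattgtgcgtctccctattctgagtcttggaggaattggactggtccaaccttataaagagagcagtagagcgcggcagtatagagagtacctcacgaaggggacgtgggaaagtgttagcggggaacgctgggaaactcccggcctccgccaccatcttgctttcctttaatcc
NDUFS6: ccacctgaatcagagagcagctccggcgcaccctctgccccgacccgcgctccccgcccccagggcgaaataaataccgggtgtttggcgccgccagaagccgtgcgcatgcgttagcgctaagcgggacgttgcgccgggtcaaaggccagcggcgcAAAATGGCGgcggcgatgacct
COX8A holds an ETS motif, UQCRC1 an NRF1 motif and NDUFS6 a YY1 motif, and in UQCRC2 none of the 4 searched motifs was found.

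The motifs were searched as letters on both strands in the same windows of the 63 members with a RefSeq promoter, and no matches of different motifs overlapped in these. A gene counted if any of its windows held the motif. The NRF1 motif (GCGCA, any base, GCGC) was found in 14 of the 63 members (22.2%). Of 8751 nuclear protein-coding genes at 1 FPKM or more in at least 2 libraries 12.3% held it, and of all 27303 genes with a promoter 6.03%. The ETS motif (CCGGAAG) was found in 19 (30.2%), against 20.3% and 10.0%. YY1 (AANATGGCG) matched 10 (15.9%), against 6.05% and 2.66%. A sterol regulatory element (TCACNCCAC), the kind of site SREBPs bind, was found in 0 of the 63, against 0.914% and 0.886%. The shares of the first 3 motifs were higher among the members than among the expressed genes as a whole, and no test was made. The 19 members with an ETS match had a median log2 ratio of -0.31 in HepG2 and -0.17 in PLC/PRF/5, and the 27 with none of the motifs had -0.19 and -0.25, so the order of these medians differed between the lines.

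Levels spread over more than 2 orders of magnitude within the chain, per kilobase of merged exons. ATP5F1B, the catalytic beta subunit of ATP synthase (ENSG00000110955, chromosome 12, 56638175 to 56646068), was the highest member, at 171 FPKM in treated and 198 FPKM in control HepG2, and at 224 FPKM in treated and 256 FPKM in control PLC/PRF/5. NDUFS5, an accessory subunit of complex I, had the highest mean of its complex over the 4 libraries, at 86.2 FPKM in treated and 109.6 FPKM in control HepG2 and at 88.9 FPKM in treated and 96.9 FPKM in control PLC/PRF/5, where NDUFA1 was higher at 107.4 FPKM. UQCRH, the hinge protein of complex III, stood at 50.3 and 62.5 FPKM in treated and control HepG2, and at 56.9 and 60.1 FPKM in treated and control PLC/PRF/5. These 3 genes kept the same order in every library, ATP5F1B above NDUFS5 above UQCRH.

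Summed over members, the level was 1391 FPKM in treated HepG2 and 1691 FPKM in its control, and 1764 FPKM in treated PLC/PRF/5 and 2047 FPKM in its control. As a share of all fragments this was 0.381% and 0.452% in treated and control HepG2, and 0.427% and 0.485% in treated and control PLC/PRF/5. The PLC/PRF/5 control was thus the highest library and treated HepG2 the lowest. In bulk RNA, fewer cells of a kind and less of an RNA per cell cannot be told apart. Levels between genes depend on the length used, since merged exons hold every annotated isoform. The median merged length of the members was 2468.5 bases and that of their principal transcripts 1090, and Spearman's rho between the levels per either length was 0.80 across the 78 genes.

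**Figure D1:**
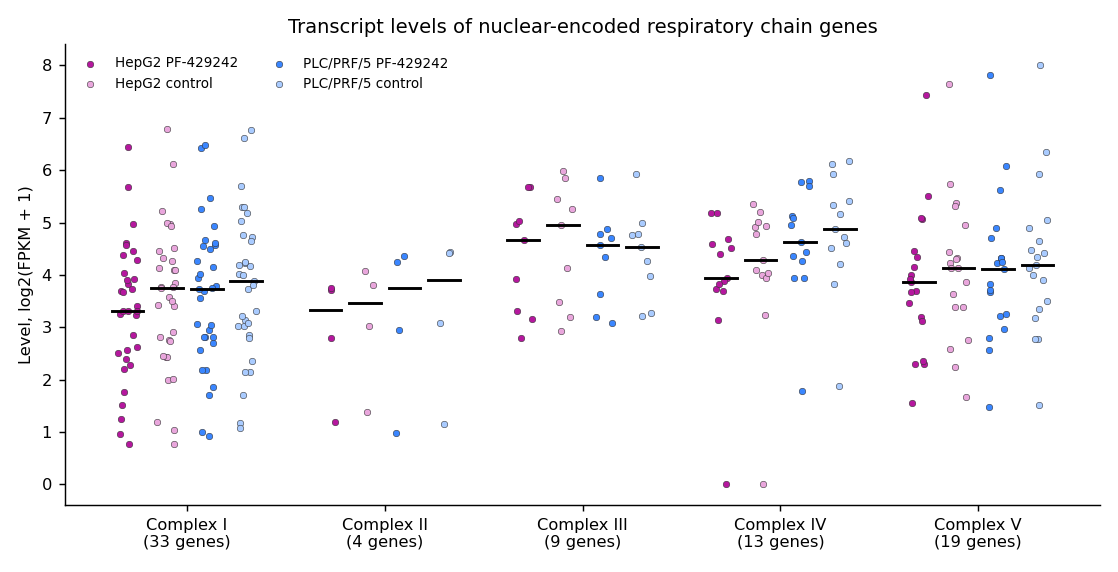
Levels of the 78 members in each library, as log2(FPKM + 1), by complex. Points are genes and black bars are the level of the median gene. In complexes I, II, IV and V the median is lower in each treated library than in its control, while in complex III it is 24.5 FPKM in treated and 29.9 FPKM in control HepG2, and 22.7 FPKM in treated and 22.2 FPKM in control PLC/PRF/5.

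Members just inside the level filter included NDUFA9, a complex I accessory subunit, at 0.709 FPKM in treated and 1.05 FPKM in control HepG2 and at 0.907 and 1.25 FPKM in treated and control PLC/PRF/5. Just outside it was NDUFA11, another accessory subunit, at 0.995 and 1.29 FPKM in treated and control HepG2 and at 0.986 and 0.783 FPKM in treated and control PLC/PRF/5. COX7A1, the muscle and heart isoform of a complex IV subunit, was also outside, at 0.587 and 0.510 FPKM in treated and control HepG2 and at 0.904 and 1.68 FPKM in treated and control PLC/PRF/5. The other 7 below the filter were NDUFA7, NDUFA13, UQCRHL, NDUFA4L2, COX6B2, ATP5MF-PTCD1 and ATP5MGL. Of their exon bases, NDUFA7 shares 33.5%, NDUFA13 21.0%, NDUFA11 12.1% and COX7A1 0% with other annotated genes. The level of such a gene is uncertain, and the part of shared bases in it was not tested.

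In treated HepG2 the members were lower almost throughout, each by a small amount. The log2 ratio was below 0 for 72 of the 78 members (92.3%), where 80.4% of all genes tested and 9033 of 10650 nuclear protein-coding genes were. It was below the median of all genes for 60 of them (76.9%), where 50% of genes are by construction. The members' median was -0.23, against -0.16 for all genes, and their range was -0.55 to 0.20. Lower by 1.2-fold or more in (FPKM + 1), the scale of all fold counts here, were 30 members (38.5%), against 27.6% of genes, and higher by as much were 0, against 3.98%. At 1.5-fold or more 0 members were lower, against 3.81% of genes, and 0 higher, against 1.47%.

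Treated PLC/PRF/5 gave a similar but looser picture. Below 0 were 69 members (88.5%), against 69.4% of genes and 7731 of 10650 nuclear protein-coding genes. Below the median of all genes were 52 (66.7%), against 50%. The members' median was -0.20, against -0.12 for all genes. Lower by 1.2-fold or more were 22 (28.2%), against 24.8% of genes, a share near the background. The only member higher by 1.2-fold or more was UQCRC2, where 9.81% of genes were. Past 1.5-fold there were 0 lower and 0 higher, against 3.68% and 3.13% of genes.

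The ratio of FPKM was also set against its counting error, a 95% exact interval (Clopper-Pearson, on fragments recovered from the FPKM) that compares the libraries and not the conditions. In HepG2 the interval lay below 1 for 56 members (71.8%), against 48.3% of genes, and above 1 for 0, against 3.3%. For the other line it lay below 1 for 52 members (66.7%), against 40.8%, and above 1 for 3, against 11.1%. Those 3 were UQCRC1, UQCRC2 and COX7A2L. The members are all nuclear protein-coding genes, while the genes tested also hold other kinds. Of the 10650 nuclear protein-coding genes tested, the interval lay below 1 for 5951 in HepG2 and 4975 in PLC/PRF/5. It lay above 1 for 338 and 1239 of them.

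**Figure D2:**
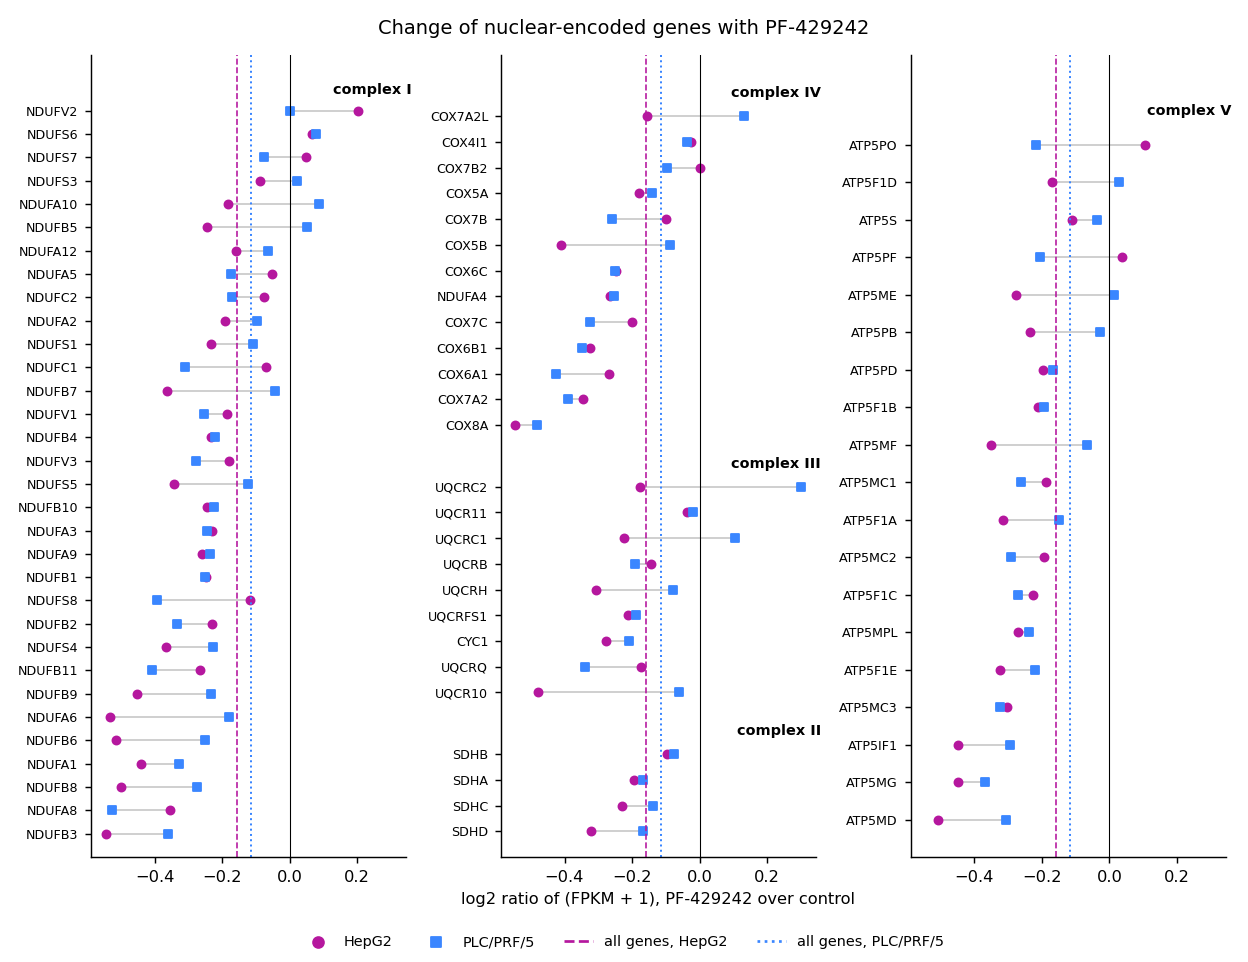
The log2 ratio of (FPKM + 1), PF-429242 over control, of 77 members in HepG2 (circles) and PLC/PRF/5 (squares). The dashed and dotted lines are the medians of all genes tested, -0.16 in HepG2 and -0.12 in PLC/PRF/5. Most members lie left of 0 in both lines, and UQCRC2 has the widest gap to the right, with -0.18 in HepG2 and 0.30 in PLC/PRF/5.

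Complex I, the NADH dehydrogenase, had a median log2 ratio of -0.23 in both lines, with 30 of 33 genes below 0 in HepG2 and 29 in PLC/PRF/5. Its lowest members were accessory subunits. NDUFB3, a membrane-arm subunit (chromosome 2, 201071433 to 201085750), was at 20.9 FPKM in treated and 30.9 FPKM in control HepG2, a ratio of 0.676 (counting interval 0.586 to 0.779). In the other line it was at 29.6 FPKM in treated and 38.3 FPKM in control cells (0.773, 0.683 to 0.874). NDUFB3 was lower in both treated libraries, beyond counting error in each.

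NDUFA8, an accessory subunit of the intermembrane side (chromosome 9, 122144058 to 122159819), was the lowest member in PLC/PRF/5, at 24.2 FPKM in treated and 35.4 FPKM in control cells (ratio 0.686, 0.598 to 0.785). In HepG2 it was at 23.5 FPKM in treated and 30.3 FPKM in control cells (0.775, 0.673 to 0.893). NDUFA6, a subunit of the LYR-motif family, differed more between the lines. It was at 14.2 FPKM in treated and 21.0 FPKM in control HepG2 (0.677, 0.592 to 0.773), but at 22.9 FPKM in treated and 26.1 FPKM in control PLC/PRF/5 (0.878, 0.786 to 0.981).

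Core subunits varied. NDUFS1, with the largest set of iron-sulphur clusters, had log2 ratios of -0.23 in HepG2 and -0.11 in PLC/PRF/5, and NDUFV1, which binds NADH, had -0.19 in HepG2 and -0.25 in PLC/PRF/5. NDUFS8, another iron-sulphur subunit, was at -0.12 in HepG2 and -0.39 in PLC/PRF/5. NDUFS6, a zinc-binding accessory subunit (chromosome 5, 1801400 to 1816605), was the only member above 0 in both lines, at 19.9 and 19.0 FPKM in treated and control HepG2 and at 18.3 and 17.2 FPKM in treated and control PLC/PRF/5. Both of its intervals held 1 (ratio 1.05, 0.927 to 1.19 in HepG2 and 1.06, 0.932 to 1.203 in PLC/PRF/5), and on a scale of equal FPKM sums its log2 ratios were -0.25 and -0.24. NDUFV2, a flavoprotein subunit at 0.961 and 0.706 FPKM in treated and control HepG2, had the highest ratio there (1.36), with an interval of 0.861 to 2.18 that also held 1.

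Complex II, succinate dehydrogenase, which also works in the citric acid cycle, was below 0 for all 4 genes in both lines as deposited, with medians of -0.21 in HepG2 and -0.15 in PLC/PRF/5. SDHD, a membrane anchor, was at 12.5 FPKM in treated and 15.8 FPKM in control HepG2 (ratio 0.787, 0.709 to 0.874) and at 18.0 FPKM in treated and 20.4 FPKM in control PLC/PRF/5 (0.885, 0.810 to 0.967). SDHC, the other anchor, had ratios of 0.833 (0.778 to 0.891) in HepG2 and 0.897 (0.841 to 0.956) in PLC/PRF/5. The iron-sulphur subunit SDHB was nearest to no difference, at 0.931 (0.827 to 1.05) in HepG2 and 0.947 (0.863 to 1.04) in PLC/PRF/5. SDHA, the flavoprotein, was listed at 1.29 and 1.62 FPKM in treated and control HepG2 and at 0.981 and 1.23 FPKM in treated and control PLC/PRF/5. Its named pseudogenes reached 11.1 FPKM, so reads of SDHA could have been counted in its copies and its level is uncertain.

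Complex III, the cytochrome bc1 complex, had a median of -0.21 in HepG2, and -0.078 in PLC/PRF/5, where it turned positive under 3 of the 4 other scalings tried (0.045 to 0.074). UQCRC2, a core subunit that faces the matrix (ENSG00000140740, chromosome 16, 21952660 to 21983660), was at 50.1 FPKM in treated and 56.7 FPKM in control HepG2, a ratio of 0.882 (0.849 to 0.917). In PLC/PRF/5 it was at 22.7 FPKM in treated and 18.2 FPKM in control cells, a ratio of 1.25 (1.17 to 1.32). Its partner core subunit UQCRC1 (chromosome 3, 48599002 to 48610976) was at 31.6 and 37.0 FPKM in treated and control HepG2 (0.852, 0.801 to 0.907), and at 28.4 and 26.3 FPKM in treated and control PLC/PRF/5 (1.08, 1.01 to 1.16). Both core subunits were thus lower in treated HepG2 and higher in treated PLC/PRF/5 as deposited. With median-of-ratios scaling the log2 ratio of UQCRC2 was 0.033 in HepG2 and 0.42 in PLC/PRF/5, and on equal FPKM sums it was -0.51 and -0.018, so the gap between the lines stood while the signs did not.

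Among the other subunits of complex III, UQCR10, a small accessory subunit, was at 30.3 FPKM in treated and 42.7 FPKM in control HepG2 (0.711, 0.636 to 0.794), and at 25.003 and 26.1 FPKM in treated and control PLC/PRF/5 (0.957, 0.840 to 1.09). UQCRQ, a small membrane subunit, was lowest of the complex in PLC/PRF/5, with a log2 ratio of -0.34 there and -0.17 in HepG2. UQCR11 stood near 0 in both, at -0.04 and -0.02. The electron-carrying subunits lay between, with -0.28 in HepG2 and -0.21 in PLC/PRF/5 for cytochrome c1 (CYC1), and -0.21 and -0.19 for the Rieske iron-sulphur protein UQCRFS1.

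Complex IV, cytochrome c oxidase, had medians of -0.25 in both lines, with 6 of 13 genes lower by 1.2-fold or more in HepG2, where 27.6% of all genes were, and 5 in PLC/PRF/5, where 24.8% were. COX8A, the ubiquitous isoform of the smallest subunit (ENSG00000176340, chromosome 11, 63974607 to 63976543), was at 20.0 FPKM in treated and 29.7 FPKM in control HepG2, a ratio of 0.674 (0.557 to 0.816). In PLC/PRF/5 it was at 50.7 FPKM in treated and 71.1 FPKM in control cells (0.713, 0.631 to 0.804). It was lower in both treated libraries, and 34.5% of its exon bases are shared with another annotated gene, whose reads cannot be told apart if the libraries kept no strand. COX6A1 and COX7A2, the isoforms that most tissues outside muscle use, had log2 ratios of -0.27 and -0.35 in HepG2. In PLC/PRF/5 they had -0.43 and -0.39. COX6B1 was at -0.33 in HepG2 and -0.35 in PLC/PRF/5. NDUFA4 was at -0.27 and -0.25.

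COX4I1, the ubiquitous isoform of the regulatory subunit, was nearly level, at 35.3 and 35.9 FPKM in treated and control HepG2 (0.983, 0.935 to 1.03) and at 33.7 and 34.6 FPKM in treated and control PLC/PRF/5 (0.974, 0.926 to 1.02). COX5A, the highest member of the complex by mean level, had log2 ratios of -0.18 and -0.14, close to the medians of all genes. COX7A2L, which joins complexes III and IV in supercomplexes, was at 13.7 and 15.4 FPKM in treated and control HepG2 (0.890, 0.828 to 0.957) and at 14.4 and 13.1 FPKM in treated and control PLC/PRF/5 (1.102, 1.02 to 1.19). Like the core subunits of complex III, it had opposite signs in the lines. Its log2 ratio was 0.044 in HepG2 and 0.25 in PLC/PRF/5 under median-of-ratios scaling.

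Complex V, ATP synthase, had medians of -0.23 in HepG2 and -0.22 in PLC/PRF/5, with 17 of 19 genes below 0 in each. Its highest transcript ATP5F1B had ratios of 0.862 (0.835 to 0.890) and 0.874 (0.850 to 0.898). The alpha subunit ATP5F1A was at 0.799 (0.773 to 0.825) in HepG2 and 0.898 (0.867 to 0.930) in PLC/PRF/5, and the gamma subunit ATP5F1C of the rotor shaft at 0.851 and 0.827. ATP5MC1, ATP5MC2 and ATP5MC3, which encode the same c-ring protein, had log2 ratios of -0.19, -0.19 and -0.30 in HepG2 and of -0.26, -0.29 and -0.32 in PLC/PRF/5.

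The lowest members of complex V belonged to the small membrane and regulatory subunits. ATP5MD (now ATP5MK, chromosome 10, 103389041 to 103396492), which helps ATP synthase form dimers, was at 20.9 FPKM in treated and 30.2 FPKM in control HepG2 (0.693, 0.604 to 0.794), and at 48.1 and 59.8 FPKM in treated and control PLC/PRF/5 (0.805, 0.734 to 0.883). ATP5MG, subunit g, had log2 ratios of -0.45 in HepG2 and -0.37 in PLC/PRF/5, and ATP5IF1, the inhibitor that stops the enzyme running backwards, -0.45 and -0.30. At the other end, ATP5PO, the stalk subunit OSCP, was at 4.09 and 3.74 FPKM in treated and control HepG2 (1.096, 0.908 to 1.32) and at 4.92 and 5.89 FPKM in treated and control PLC/PRF/5 (0.836, 0.713 to 0.979). ATP5PF, a peripheral stalk subunit, also had the higher ratio in HepG2, with log2 ratios of 0.04 and -0.20.

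Across the 2 lines, 13 members were lower by 1.2-fold or more in both, 16.7% of members against 10.5% of genes. They were 5 genes of complex I (NDUFA1, NDUFA8, NDUFB3, NDUFB8 and NDUFB11), 4 of complex IV (COX6A1, COX6B1, COX7A2 and COX8A) and 4 of complex V (ATP5IF1, ATP5MC3, ATP5MD and ATP5MG), and 0 of complexes II and III. The list depended on the scaling. With median of ratios, nuclear totals or quantile normalization COX8A was the 1 member lower by 1.2-fold or more in both lines, 1.28%, 1.28% and 1.27% of members against 3.22%, 3.27% and 3.02% of genes, and with equal FPKM sums 67 members were (85.9%), against 56.3%. Below 0 in both lines were 64 members (82.1%), against 59% of genes. Spearman's rho between the log2 ratios of the lines was 0.38 over the 78 members and 0.26 over 10644 nuclear protein-coding genes, a description across genes, which share their libraries and are not independent.

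The counting intervals of the lines' ratios lay apart, with HepG2 lower, for 10 members (12.8%), against 15.3% of genes, and with HepG2 higher for 0, against 3.89%. The 10 were NDUFA6, NDUFA10, UQCRC1, UQCRC2, UQCRH, UQCR10, COX5B, COX7A2L, ATP5F1A and ATP5PB. This share was near the background, and whether the lines differed in response could not be tested with 1 library a group. UQCRC2 had the widest gap, with a log2 ratio lower by 0.48 in HepG2 than in PLC/PRF/5.

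A shared effect of PF-429242 was fitted over all 12838 genes with limma, the lines serving as the replicates and leaving 1 residual degree of freedom. No member and no gene had an adjusted p under 0.05, and the lowest Benjamini-Hochberg adjusted p was 0.193 (limma). At an unadjusted p under 0.05 stood 35 members, all lower, 44.9% of members against 17.5% of genes lower and 1.9% higher. They were 14 of complex I, 1 of complex II, 3 of complex III, 7 of complex IV and 10 of complex V. COX8A had a shared log2 effect of -0.51 (SE 0.0692, limma adjusted p 0.193), lower in 2 of 2 lines, NDUFB3 of -0.45 (SE 0.0816) and NDUFA8 of -0.44 (SE 0.0803), each with the same adjusted p. With median-of-ratios scaling 8 members (10.3%) had an unadjusted p under 0.05 in either direction, against 10.6% of genes, a share near the background. Without the trend in eBayes 17 members did (21.8%), against 16% of genes, and without the line block 0 did, against 0.872%.

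The transcripts encoded in the mitochondrion moved the other way in HepG2. All 13 were higher there, by 1.50-fold to 1.79-fold, with a median log2 ratio of 0.70, while no nuclear member was higher by 1.2-fold. In PLC/PRF/5 10 of the 13 were higher, by 1.25-fold to 2.19-fold, and MT-ND5, MT-ND6 and MT-CYB, which neighbour each other on the mitochondrial genome, were lower, at ratios of 0.163, 0.120 and 0.153. In complex IV, the median level of the 3 mitochondrial transcripts was 1754 times that of the nuclear members in treated HepG2 and 830 times in its control, and 1791 times in treated and 731 times in control PLC/PRF/5. In complex III, where MT-CYB is the one mitochondrial subunit, this ratio was 452 in treated and 234 in control HepG2, but 77.9 in treated and 519.9 in control PLC/PRF/5. Because FPKM is scaled to all fragments, the 2 kinds of transcript are not independent on this scale.

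Other mitochondrial and ribosomal lists also had medians below 0 as deposited. The 75 mitochondrial ribosomal protein genes had medians of -0.17 in HepG2 and -0.14 in PLC/PRF/5, and the 82 cytosolic ribosomal protein genes -0.12 and -0.03. The 16 assembly factors of complex I had -0.14 and -0.10, and the 18 of complex IV -0.14 and -0.14, nearer to 0 than the subunits of those complexes. The 4 factors of complex II, at -0.24 and -0.18, and the 6 of complex III in PLC/PRF/5, at -0.17, were not nearer to 0 than theirs. In treated HepG2 4 of the 16 complex I factors were lower by 1.2-fold or more, against 27.6% of all genes, and 0 were higher. PLC/PRF/5 had 5 lower, against 24.8%, and 4 higher, against 9.81%, among them NUBPL, which inserts iron-sulphur clusters, at -0.31 in HepG2 and 0.27 in PLC/PRF/5, and NDUFAF8 at -0.35 and 0.28.

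The 13 citric acid cycle genes had medians of -0.24 and -0.07. OGDH, of the oxoglutarate dehydrogenase complex, had log2 ratios of -0.47 and -0.46, and SUCLG2, of succinyl-CoA ligase, of -0.51 and -0.22. Among electron donors, cytochrome c (CYCS) was at 28.04 and 35.5 FPKM in treated and control HepG2 and at 36.6 and 48.2 FPKM in treated and control PLC/PRF/5, log2 ratios of -0.33 and -0.39. Of the 78 members 18 were lower than that in HepG2 and 5 in PLC/PRF/5. Of 13 regulators of mitochondrial biogenesis, PPARGC1A, the coactivator that drives respiratory gene expression in liver, was higher in both treated libraries as deposited, at 3.85 and 2.25 FPKM in treated and control HepG2 (log2 ratio 0.58) and at 3.95 and 2.97 FPKM in treated and control PLC/PRF/5 (0.32). NRF1 had -0.05 and -0.12, and GABPA, the DNA-binding part of GABP, -0.10 and -0.34.

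**Figure D3:**
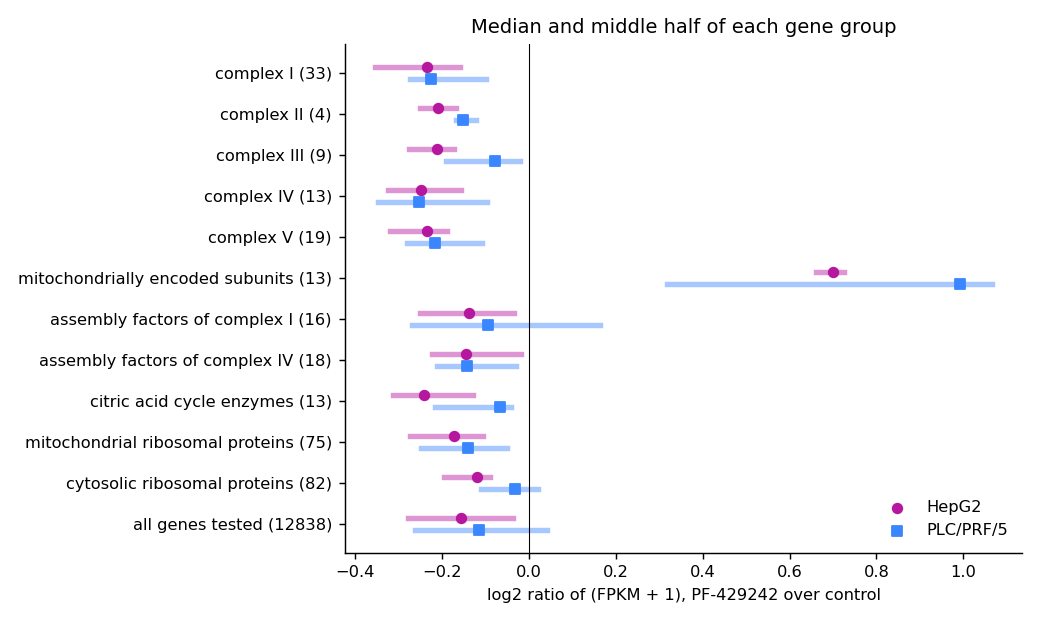
Median (points) and interquartile range (bars) of the log2 ratio of (FPKM + 1), PF-429242 over control, in HepG2 (circles) and PLC/PRF/5 (squares), with the number of genes in brackets. The 5 complexes sit between -0.25 and -0.08, and the mitochondrially encoded subunits at 0.70 in HepG2 and 0.99 in PLC/PRF/5.

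Between the untreated lines single genes differed by more than with treatment, from -1.88 to 1.59 in log2 ratio. The -1.88 was that of COX7B2, which the level filter admitted through PLC/PRF/5 alone, and the next lowest was COX8A at -1.23. HepG2 was lower than PLC/PRF/5 in 54 of the 78 members (69.2%), against 53.2% of genes. The median log2 ratio for HepG2 over PLC/PRF/5 was -0.30, against -0.053 for all genes. Lower by 1.2-fold or more were 41 members (52.6%), against 37.8%, and higher by as much 11 (14.1%), against 32.2%. COX7B2 and NDUFV2 passed the level filter through PLC/PRF/5 alone, so the filter fixed their direction, and both are in the 41. Without COX7B2 the count was 40 of 77 (51.9%), while NDUFV2 stayed in all counts and in the complex I median. By complex the median was -0.30 in complex I, -0.20 in II, -0.018 in III, -0.63 in IV and -0.21 in V, and that of complex III was above 0 on equal FPKM sums (0.18) and after quantile normalization (0.038).

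Complex IV held the lowest members, with 10 of 13 lower by 1.2-fold or more in control HepG2, against 37.8% of all genes, and 0 higher. Without COX7B2, which passed the level filter through PLC/PRF/5 alone and so had to differ, they were 9 of 12. COX8A was at 29.7 FPKM in control HepG2 and 71.1 FPKM in control PLC/PRF/5, a ratio of 0.417 (0.360 to 0.483). COX6B1, which joins the monomers of the oxidase, was at 31.4 FPKM in control HepG2 and 68.7 FPKM in control PLC/PRF/5 (0.457, 0.422 to 0.496), and COX7A2 at 18.6 FPKM in control HepG2 and 39.3 FPKM in control PLC/PRF/5 (0.474, 0.430 to 0.520). Without COX7B2 these were the 3 members (3.9%) lower by 2-fold or more in (FPKM + 1), against 12.1% of genes. COX4I1 differed little, at 35.9 FPKM in control HepG2 and 34.6 FPKM in control PLC/PRF/5 (1.04, 0.986 to 1.09), so the subunits of the same enzyme did not share one ratio.

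COX7B2, an isoform of COX7B best known from testis, was listed at 0 FPKM in both HepG2 libraries and at 2.45 and 2.69 FPKM in treated and control PLC/PRF/5, on 34 and 47 fragments. Against a floor of 3 fragments in the HepG2 control it was at least 12.2-fold lower there. Its usual counterpart COX7B was at 8.42 FPKM in control HepG2 and 17.5 FPKM in control PLC/PRF/5 (0.482, 0.430 to 0.539). COX6B2, another testis isoform, was at 0 in both HepG2 libraries and at 0.174 and 0.151 FPKM in treated and control PLC/PRF/5.

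In complex III, 3 of the 9 genes were higher by 1.2-fold or more in control HepG2, a share near the 32.2% of all genes. UQCRC2 was at 56.7 FPKM in control HepG2 and 18.2 FPKM in control PLC/PRF/5, a ratio of 3.11 (2.96 to 3.28), and was the only member higher by 2-fold or more on the log2(FPKM + 1) scale, where 9.53% of genes were. UQCR10 was at 42.7 FPKM in control HepG2 and 26.1 FPKM in control PLC/PRF/5 (1.63, 1.46 to 1.83), and UQCRC1 at 37.0 FPKM in control HepG2 and 26.3 FPKM in control PLC/PRF/5 (1.41, 1.32 to 1.50). In complex V the peripheral stalk subunit ATP5PB was at 39.0 FPKM in control HepG2 and 19.4 FPKM in control PLC/PRF/5 (2.02, 1.88 to 2.16). In complex I, NDUFA10 was at 11.0 FPKM in control HepG2 and 6.25 FPKM in control PLC/PRF/5 (1.76, 1.63 to 1.89). UQCRC2 remained higher in HepG2 by between 1.50 and 1.80 on the log2 scale under the 4 other scalings.

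Levels in neighbouring genes differed between the lines too. The 491 nuclear protein-coding genes tested on chromosome 16, where UQCRC2 lies, had a median log2 ratio of 0.43 in HepG2 over PLC/PRF/5. Genes of the other chromosomes named here were counted in the same way. The members there, COX4I1, NDUFB10 and UQCRC2, had a median of 0.050. The 380 genes on the X chromosome had -0.66, and its members NDUFA1, NDUFB11 and COX7B a median of -0.94. On chromosome 21 the 97 genes had -0.44 and the members NDUFV3, ATP5PF and ATP5PO -0.60. On chromosome 14 the 362 genes had 0.26 and the members ATP5MPL, ATP5S and NDUFB1 -0.11. The part of these chromosome-wide differences in the members' values was not tested.

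**Figure D4:**
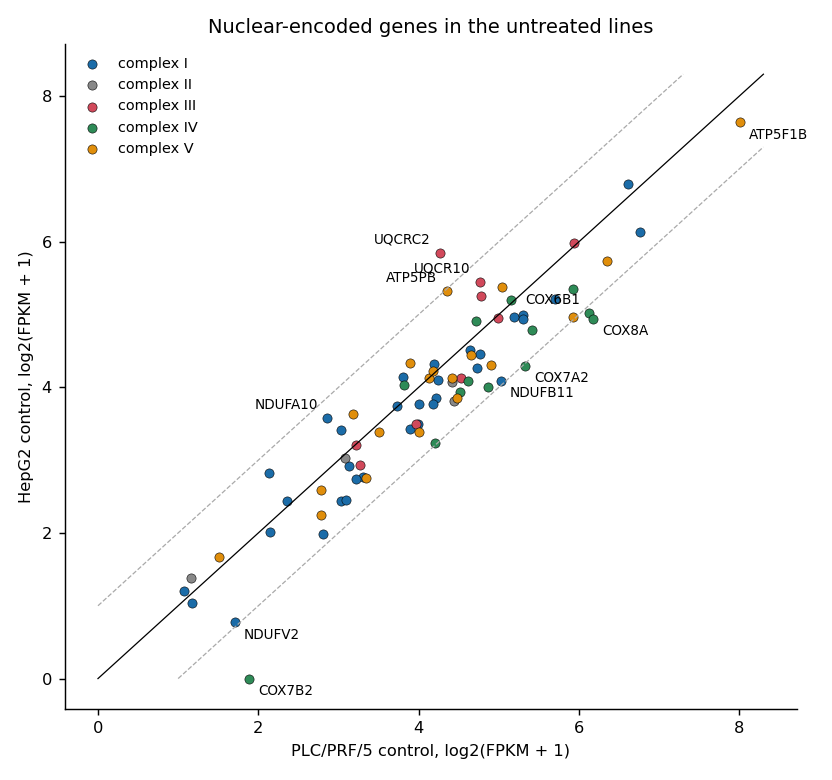
Level of each member in control HepG2 (vertical) against control PLC/PRF/5 (horizontal), both as log2(FPKM + 1), coloured by complex. The solid line marks equal levels and the dashed lines a difference of 2-fold in (FPKM + 1). COX8A, COX6B1, COX7A2 and COX7B2 lie on or beyond the lower dashed line, and UQCRC2 beyond the upper.

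The size of the treatment differences depended on how the libraries were scaled. When totals were taken over nuclear genes alone, which takes out the mitochondrial share, the members' median was -0.046 in HepG2 and -0.076 in PLC/PRF/5, and that of all genes -0.0015 and -0.012. Median-of-ratios scaling gave -0.036 and -0.082 for the members, and quantile normalization -0.047 and -0.040. Members lower by 1.2-fold or more then numbered 8, 9 and 7 in HepG2 and 6, 5 and 2 in PLC/PRF/5 (median of ratios, nuclear totals and quantile, the last with 79 members past the level filter). As shares of members these were 10.3%, 11.5% and 8.86% in HepG2, against 8.99%, 9.36% and 8.78% of genes, and 7.69%, 6.41% and 2.53% in PLC/PRF/5, against 13.1%, 12.8% and 12.2% of genes. Members below 0 numbered 47, 53 and 51 in HepG2 and 53, 52 and 48 in PLC/PRF/5 under the same settings, where the share of all genes was not counted. Below the median of all genes, where 50% of genes are by construction, were 47, 52 and 51 members in HepG2. In PLC/PRF/5 these were 50, 50 and 48. Rescaling to equal sums of FPKM gave -0.54 and -0.50, with 73 and 69 members lower by 1.2-fold or more, against 77.7% and 68.2% of genes. The members' median stayed below that of all genes under each of these scalings, with a difference between -0.11 and -0.036 in HepG2 and between -0.12 and -0.041 in PLC/PRF/5.

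**Figure D5:**
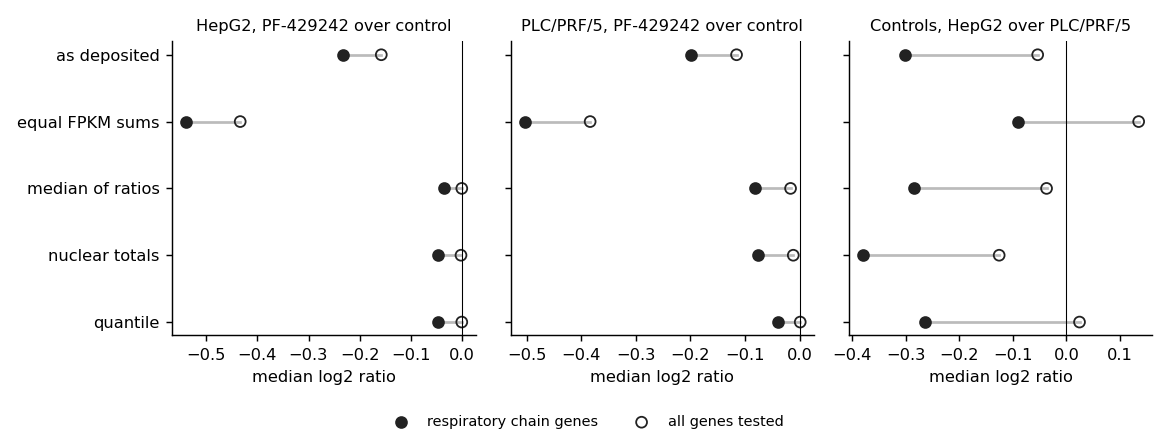
Median log2 ratio of the respiratory chain genes (filled) and of all genes tested (open) under 5 scalings, for PF-429242 over control in HepG2 and in PLC/PRF/5, and for the HepG2 control over that of PLC/PRF/5. The filled point is left of the open one in each row, while the distance of both from 0 depends on the scaling.

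The members' transcripts are short, and 36 of the 78 have a principal transcript under 1 kb. Those 36 had median log2 ratios of -0.27 in HepG2 and -0.23 in PLC/PRF/5, and the 42 of 1 kb or more -0.21 and -0.18, so the shorter members lay lower in both lines. Across the 78 members, Spearman's rho of the log2 ratio with length was 0.30 in HepG2 and 0.14 in PLC/PRF/5, against 0.013 and 0.0091 over 10644 nuclear protein-coding genes. With mean FPKM, rho was -0.40 in HepG2 and -0.09 in PLC/PRF/5 across the members, against -0.15 and -0.08 over the same 10644 genes. The part of transcript length or level in the result was not tested.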

How the data were processed

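RNA was sequenced from 4 cultures, 1 library a group. The deposited values were FPKM, made by the authors for 32479 Ensembl genes. Alignment was by TopHat2 to GRCh38, per the submitters' processing notes. Not given in the sources used here are the counting program, annotation, strandedness and RNA selection. Symbols, positions and exon lengths are those of GENCODE 29 (GRCh38); promoters are RefSeq's.

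Whole fragments were recovered from the FPKM values: 24452 genes (75.3%) were whole, within 0.001 fragments, at the merged exon length of GENCODE 29, 8026 at another length, and 1 was unsolved. For a gene of 1 kb, 3 fragments equal 0.140 to 0.179 FPKM. Intervals (95%, exact conditional binomial) and floors cover counting error only. Log2 ratios used (FPKM + 1), which understates the change of low genes. Genes tested had 1 FPKM or more in at least 2 libraries. The shared effect came from limma 3.58.1 under R 4.3.3 (lmFit, eBayes with trend, cell line as a block, Benjamini-Hochberg over all 12838 genes, threshold 0.05); the scripts were tested on simulated data.

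Named genes were the extremes of level, ratio and line difference overall and by complex, complex II, isoform families, and leading genes of comparison lists; others were named after their values were seen. Members and lists were chosen with earlier results of these data known. Alternatives were pseudocounts of 0.1 and 5, other filters, thresholds and scalings, and limma without trend, without the block or with robust moderation. COX4I2, COX6A2 and COX8C were not analysed here. The counts and medians include 1 member that is not reported here by name. No source says whether cultures were independent, and limma's p-values measure only the spread between these libraries.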

Additional observations from a re-analysis of the deposited data

Results flagged for a closer look

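For 3 members the log2 ratio was below 0 in HepG2 and above 0 in PLC/PRF/5, with both counting intervals off 1, and the difference between the lines was not tested. The share of all genes under this rule was not counted. Under the wider rule of intervals lying apart with HepG2 lower, it was 12.8% of members against 15.3% of genes, near the background. HepG2 minus PLC/PRF/5, the difference in log2 ratio was -0.48 for UQCRC2, -0.33 for UQCRC1 and -0.29 for COX7A2L. UQCRC1 and UQCRC2 form the core of complex III and COX7A2L binds complex III to complex IV. Under median-of-ratios scaling the HepG2 ratio was 0.033 for UQCRC2, -0.015 for UQCRC1 and 0.044 for COX7A2L, and the PLC/PRF/5 ratio 0.42, 0.23 and 0.25. With equal FPKM sums all 3 were below 0 in both lines.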

How the results depend on the processing

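The members' median log2 ratio kept its sign under every alternative in HepG2, PLC/PRF/5 and the controls. In HepG2 (main -0.23) it was -0.25 and -0.17 with pseudocounts of 0.1 and 5, and -0.54, -0.036, -0.046 and -0.047 with equal FPKM sums, median of ratios, nuclear totals and quantile normalization. In PLC/PRF/5 (main -0.20) the same settings gave -0.21, -0.14, -0.50, -0.082, -0.076 and -0.040, and no filter gave -0.18. With pseudocounts of 0.1 and 5 the medians of all genes were -0.198 and -0.089 in HepG2, and -0.141 and -0.066 in PLC/PRF/5. Between the controls (main -0.30) a pseudocount of 5 gave -0.25, no filter -0.24, at least 5 FPKM -0.33, and the 4 scalings -0.090, -0.28, -0.38 and -0.26.

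Members lower by 1.2-fold or more (30 in HepG2, 22 in PLC/PRF/5) numbered 73 and 69 with equal FPKM sums, 8 and 6 with median of ratios, 9 and 5 with nuclear totals and 7 and 2 with quantile normalization. With pseudocounts of 0.1 and 5 they were 37 (47.4%) and 21 (26.9%) in HepG2, against 37.7% and 10.2% of genes. In PLC/PRF/5 the same pseudocounts gave 30 (38.5%) and 13 (16.7%), against 31.3% and 10.7%. Members past 1.2-fold in both lines (main 13, alternatives chosen after seeing the data) numbered 20 (25.6%) and 7 (8.97%) with pseudocounts of 0.1 and 5. Of genes, 16.4% and 3.37% were past it there. With equal FPKM sums 67 members were (85.9%), against 56.3% of genes. With each other scaling 1 member was, 1.28%, 1.28% and 1.27% of members against 3.22%, 3.27% and 3.02% of genes. Lower by 1.5-fold and 2-fold there were 0 and 0 in each line. Between the controls (main 41) they were 20 (25.6%) and 4 (5.13%), against 22.5% and 12.1% of genes. COX7B2, whose direction the level filter fixed, is in both of these counts, and NDUFV2, fixed likewise, is in the 20. The complex III median in PLC/PRF/5 (main -0.078) turned to 0.045 (median of ratios), 0.052 (nuclear totals) and 0.074 (quantile), and that between the controls (main -0.018) to 0.18 (equal FPKM sums) and 0.038 (quantile). UQCRC2 in PLC/PRF/5 turned to -0.018 with equal FPKM sums. The cause was not tested. In limma, 0 members passed the adjusted threshold under every alternative, and unadjusted counts ranged from 0 without the block to 35.

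Chosen after seeing the data, members sharing under 5% of exon bases with another gene had medians of -0.23, -0.18 and -0.24 (HepG2, PLC/PRF/5, controls), members with no named pseudogene in the table -0.19, -0.17 and -0.21, and members with a principal transcript of 1 kb or more -0.21, -0.18 and -0.21. The limma fit paired treated and control within each line, and leaving out 1 library leaves the other line's comparison, which stands on its own. Counting error limits low members such as NDUFV2 most.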

Other observations

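GPD2, the mitochondrial glycerol-3-phosphate dehydrogenase that feeds electrons to ubiquinone beside complexes I and II, was at 0.00686 and 0.00835 FPKM in treated and control HepG2, against 10.9 and 16.8 FPKM in treated and control PLC/PRF/5. ETFB, a subunit of the electron transfer flavoprotein that takes electrons from fatty acid oxidation, was at 12.5 FPKM in control HepG2 and 3.42 FPKM in control PLC/PRF/5. It was at 11.2 FPKM in treated HepG2 and 5.12 FPKM in treated PLC/PRF/5, log2 ratios to control of -0.15 and 0.47. APOO, a component of the MICOS complex that shapes cristae, was at 2.41 FPKM in control HepG2 and 8.88 FPKM in control PLC/PRF/5, and at 1.78 and 6.18 FPKM in the treated libraries of HepG2 and PLC/PRF/5. All 9 measured genes of the MICOS complex, OPA1 and the prohibitins had log2 ratios below 0 in both lines, with medians of -0.17 in HepG2 and -0.23 in PLC/PRF/5.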
